A study of Mus musculus with 14 samples.

Results

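The circadian clock genes described here were 10 of the 24062 genes in a bulk RNA-Seq count table of mouse plexiform neurofibromas (PNs) and control dorsal root ganglia (DRGs): *Clock*, *Arntl*, *Npas2*, *Per1*, *Per2*, *Per3*, *Cry1*, *Nr1d1*, *Nr1d2* and *Dbp*. They were picked by symbol as core parts of the molecular clock and its first output, all 10 were present in the table, and all 10 passed the filter on low counts in each comparison. The study asked how gene expression in PNs differs from that in control tissue and between PNs that grow at different rates. It comprised 14 libraries. The 3 controls (libraries DRG3, DRG4 and DRG5) were DRGs of Nf1fl/fl mice, which carry floxed *Nf1* without Cre. The 11 PNs came from DhhCre;Nf1fl/fl mice, in which Cre driven by *Dhh* removes *Nf1* in the Schwann cell (SC) lineage only, so that the other cells of a tumor keep the gene. PNs were split by volume change between MRI scans 2 months apart into 5 slow-growing PNs (1079, 1198A, 1202, 1203 and 1206; change under 5 mm3) and 6 fast-growing PNs (1053, 1071, 1179, 1191, 1214 and 1216; increase above 35 mm3). All mice were of mixed C57BL/6, I-129 and FVBN background, received no drug, were 9 months old at collection per the study's methods, and were kept on 12-hour dark-light cycles. The sources used here give neither the hour of the day at which each tissue was taken nor the sex of the mouse behind each library, so time of day and group cannot be told apart.

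The circadian clock is a feedback loop of transcription that runs in nearly every mammalian cell. CLOCK, or its relative NPAS2, pairs with BMAL1 (encoded by *Arntl*) and switches on genes with an E-box in their promoter, among them the *Per* and *Cry* genes, whose proteins then hold the pair in check, and *Nr1d1*, *Nr1d2* and *Dbp*. The nuclear receptors REV-ERBα (*Nr1d1*) and REV-ERBβ (*Nr1d2*) repress *Arntl*, *Npas2* and *Cry1*, among others, while DBP activates genes that carry a D-box, such as the *Per* genes. Transcripts of the loop therefore peak at different hours, those of *Arntl* and *Npas2* in roughly the opposite phase to those of *Nr1d1* and *Dbp*, and the level in 1 tissue sample depends on when it was taken.

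Libraries held 9596773 to 17594164 counts. *Nf1*, the gene deleted in SCs, stood at 131 to 229 CPM (counts scaled to a common library total with TMM, trimmed mean of M-values, factors) in the controls and at 224 to 293 CPM in the PNs. A tumor also holds cells in which Cre does not act, so this level does not check the genotype. Markers of other tissues differed between the groups. The summed level of 15 skeletal muscle genes was 4114 to 16545 CPM in the controls and 33.4 to 3857 CPM in the PNs, and that of 13 brown and white fat genes was 4923 to 7325 CPM in the controls, 58.1 to 3573 CPM in slow-growing and 49.97 to 401 CPM in fast-growing PNs. The sum of 15 neuron genes spanned 1915 to 6820 CPM in the controls and 54.2 to 15977 CPM in the PNs, with fast-growing PN 1191 the lowest, while the sum of 15 SC genes spanned 4701 to 14103 and 7138 to 22154 CPM, with 7 of the 15 called higher in PNs. The sum of 9 fibroblast genes was 2675 to 5412 CPM in the controls, 2476 to 11534 CPM in slow-growing and 9952 to 18925 CPM in fast-growing PNs (7 of 9 called higher in the last against controls), and that of 9 endothelium and pericyte genes was 961 to 1027 CPM in the controls, 234 to 1267 CPM in slow-growing and 232 to 490 CPM in fast-growing PNs (5 of 9 called lower in the last). The sum of 6 satellite glia genes was 1145 to 1396 CPM in the controls, 892 to 1713 CPM in slow-growing and 1540.0 to 1827 CPM in fast-growing PNs (3 of 6 called higher and 1 lower in the last). The sum of 8 macrophage genes was 163 to 553 CPM in the controls, 59.4 to 488 CPM in slow-growing and 274 to 962 CPM in fast-growing PNs, with none called in any comparison. Between the growth groups 7 of 8 had an unadjusted p under 0.05 by edgeR (median log2 difference 1.69), as had 3155 of all 15465 genes tested. Of all genes, 26.3% were called in PNs and 31.4% in fast-growing PNs against controls. The part of these cell types in the clock gene results was not tested. The share of counts on the ribosomal precursor *Rn45s* was 16.2 to 17.6% in the controls and 3.48 to 18.1% in the PNs. In bulk tissue, a lower level of a transcript can come from fewer cells that express it or from less RNA per cell, and these cannot be told apart.

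Before the levels, the promoters of members whose regulatory letters bear on the loop are shown. RefSeq windows of 300 bases (250 before and 50 after a start, mouse build GRCm38.p6) existed for 9 of the 10 members, 13 windows in all, and were searched on both strands for motifs of the loop. These were the E-box CACGTG to which the activators bind, a common variant of it, CACGTT, which reads AACGTG on the opposite strand, the D-box (TTATGTAA, TTACGTAA, TTGTGTAA or TTGCGTAA) and the CRE TGACGTCA. The core of the RORE, where ROR and REV-ERB receptors bind, was searched as TAGGTCA and, as a second accepted spelling, TGGGTCA. No match overlapped another, and positions are counted from the start, negative before it. *Per1* (chr11:69098699-69098998, + strand) held an E-box that begins at -166. *Per3* (chr4:151044616-151044915, - strand) held D-boxes at -205 and -158. *Cry1* (chr10:85185005-85185304, - strand) held an E-box at -60 and an E-box variant at -79. *Nr1d1* (chr11:98775328-98775627, - strand) held an E-box variant at -28. In *Arntl*, the window at the more downstream start (chr7:113207261-113207560, + strand) held a RORE core at 31. The 5 windows are printed from 5′ to 3′ with these matches in capitals.
Per1: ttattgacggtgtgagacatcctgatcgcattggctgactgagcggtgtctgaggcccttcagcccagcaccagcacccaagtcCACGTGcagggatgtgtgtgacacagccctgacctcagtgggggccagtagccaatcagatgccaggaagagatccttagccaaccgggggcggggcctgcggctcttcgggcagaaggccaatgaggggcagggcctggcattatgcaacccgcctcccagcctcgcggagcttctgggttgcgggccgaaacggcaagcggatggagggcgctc
Per3: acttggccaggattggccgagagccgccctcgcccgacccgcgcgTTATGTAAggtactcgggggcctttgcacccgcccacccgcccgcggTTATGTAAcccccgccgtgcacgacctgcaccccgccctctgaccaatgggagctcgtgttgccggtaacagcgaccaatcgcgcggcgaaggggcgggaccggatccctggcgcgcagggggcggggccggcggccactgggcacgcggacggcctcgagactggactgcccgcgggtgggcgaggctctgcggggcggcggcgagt
Cry1: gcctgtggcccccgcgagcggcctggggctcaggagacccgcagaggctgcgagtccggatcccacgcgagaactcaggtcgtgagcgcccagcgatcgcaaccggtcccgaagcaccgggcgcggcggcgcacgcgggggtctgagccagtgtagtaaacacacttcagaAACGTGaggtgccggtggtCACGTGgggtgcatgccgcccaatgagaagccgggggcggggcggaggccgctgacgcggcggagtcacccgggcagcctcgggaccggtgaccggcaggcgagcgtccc
Nr1d1: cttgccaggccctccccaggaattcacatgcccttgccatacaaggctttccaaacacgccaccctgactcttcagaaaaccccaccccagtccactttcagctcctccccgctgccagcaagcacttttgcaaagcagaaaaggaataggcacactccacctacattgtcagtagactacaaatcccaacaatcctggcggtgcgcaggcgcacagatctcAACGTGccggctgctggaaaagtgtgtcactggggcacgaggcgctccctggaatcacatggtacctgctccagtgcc
Arntl: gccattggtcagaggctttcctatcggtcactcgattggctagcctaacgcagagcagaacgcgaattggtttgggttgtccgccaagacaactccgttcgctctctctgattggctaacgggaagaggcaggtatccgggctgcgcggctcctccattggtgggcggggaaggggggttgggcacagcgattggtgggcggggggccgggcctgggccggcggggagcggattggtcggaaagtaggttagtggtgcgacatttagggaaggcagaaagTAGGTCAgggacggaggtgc

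Over 32851 RefSeq windows of the same length, 7.15% held the E-box, 4.69% the E-box variant, 1.93% the D-box, 6.45% the RORE core and 1.79% the CRE. The windows of *Clock*, *Npas2*, *Nr1d2* and *Dbp* held none of these letters. A match is a description of the sequence and does not show that a factor binds there.

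PNs differed from control DRGs in 7 of the 10 clock genes (edgeR quasi-likelihood test, Benjamini-Hochberg adjusted p under 0.05 over all 16283 genes tested, 11 PNs and 3 controls). *Nr1d1*, *Nr1d2*, *Per3*, *Dbp* and *Clock* rose and *Npas2* and *Cry1* fell, whereas *Arntl*, *Per1* and *Per2* did not pass the test. Of all genes, 26.3% were called in this comparison, 12.9% as higher and 13.4% as lower. The median log2 fold change was 0.78 over the 10 clock genes and 0.10 over all genes. In 6 of the 10 genes no PN overlapped a control, 4 with every PN above and 2 with every PN below, against 17.7% of all genes.

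**Figure D1:**
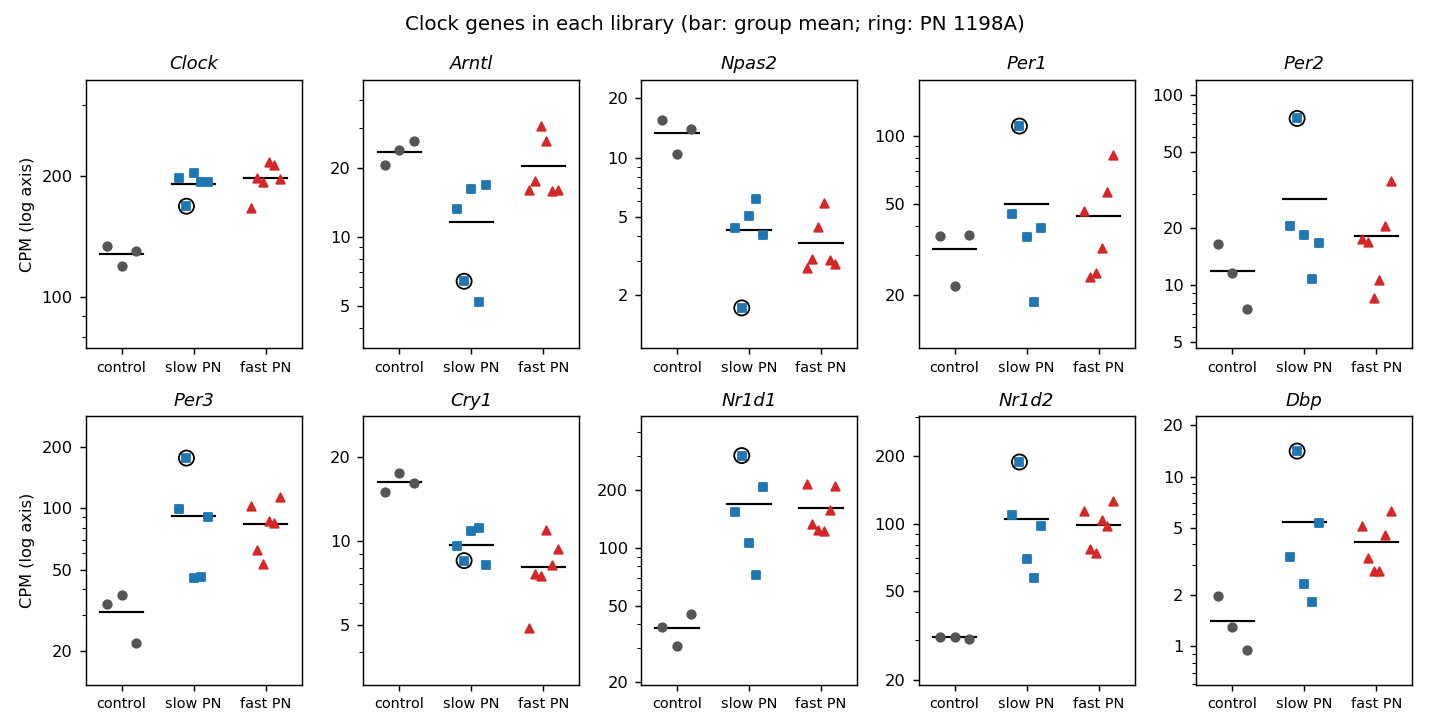
Level of each of the 10 clock genes in every library, in TMM-scaled CPM on a log axis whose range differs between panels; points are libraries (3 controls, 5 slow-growing and 6 fast-growing PNs), bars are group means and the ring marks slow-growing PN 1198A. All 11 PNs lie above the 3 controls in *Clock*, *Per3*, *Nr1d1* and *Nr1d2* and below them in *Npas2* and *Cry1*.

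Of the 10 genes, *Nr1d1* and then *Npas2* had the largest log2 fold changes between PNs and controls. *Dbp* (1.73 ± 0.59) and *Nr1d2* (1.71 ± 0.31) came next, and their order turned without PN 1198A (1.41 and 1.58). *Nr1d1* (chr11:98767932-98775333; gene positions here are GENCODE vM21 on mm10), which encodes REV-ERBα, measured 38.7, 30.9 and 45.04 CPM in the controls, 153, 303, 106, 72.1 and 207.5 CPM in slow-growing PNs 1079, 1198A, 1202, 1203 and 1206, and 122.6 to 216 CPM in the 6 fast-growing PNs (median 146). The lowest PN, 1203, thus exceeded the highest control. The log2 fold change between PNs and controls was 2.10 ± 0.38 (SE; adjusted p = 0.0011), a 4.29-fold difference. *Nr1d2* (chr14:18204054-18239127), the second REV-ERB gene, measured 31.2, 31.2 and 30.3 CPM in the controls, 110, 189, 69.5, 57.3 and 97.4 CPM in the slow-growing PNs in the same order and 73.8 to 126 CPM in the fast-growing PNs (median 100.4). Its log2 fold change was 1.71 ± 0.31 (adjusted p = 0.0011). The SD of *Nr1d2* over the controls was 0.48 CPM. On the log2 scale it was 0.022, at the 0.6th percentile of the 500 genes of nearest level. That SD rests on only 3 libraries, with 287 to 361 counts, so it does not show that the level is tightly held. The PNs spanned a 3.29-fold range.

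Part of *Nr1d1* overlaps *Thra* on the opposite strand (263 bases, 8.55% of its exon length), and the strand setting of the counting is not given in the sources used here, so reads of the shared stretch cannot be told apart. *Thra*, the thyroid hormone receptor gene, measured 35.7 ± 1.84 CPM in the controls and 47.8 ± 10.5 CPM in the PNs (SD, n = 3 and 11).

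Among the *Per* genes, which encode the negative arm of the loop, only *Per3* passed the test. *Per3* (chr4:151003652-151044665), whose promoter holds the D-boxes printed above, measured 33.8, 37.5 and 21.8 CPM in the controls, 98.7, 176, 45.4, 46.0 and 90.1 CPM in the slow-growing PNs and 53.4 to 113 CPM in the fast-growing PNs (median 85.3). No PN overlapped a control, with PNs 1202 and 1203 the closest to the highest one. The log2 fold change was 1.49 ± 0.39 (adjusted p = 0.012), and it missed the threshold without control DRG5 (1.29, adjusted p = 0.083).

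*Per1* (chr11:69095217-69109960), an early responder to light and to glucocorticoids in many tissues, measured 36.5, 21.8 and 36.7 CPM in the controls, 45.4, 111, 36.1, 18.6 and 39.2 CPM in the slow-growing PNs and 24.0 to 82.6 CPM in the fast-growing PNs (median 39.4). The groups overlapped, and the log2 fold change of 0.57 ± 0.46 did not pass the test (adjusted p = 0.39). *Per2* (chr1:91415982-91459324) measured 16.3, 11.5 and 7.40 CPM in the controls, 20.4, 75.3, 18.3, 10.7 and 16.7 CPM in the slow-growing PNs and 8.49 to 35.1 CPM in the fast-growing PNs (median 17.2). Here too the groups overlapped (0.95 ± 0.58, adjusted p = 0.25). PN 1198A held the highest value of *Per1*, *Per2* and *Per3* among all 14 libraries.

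*Cry1* (chr10:85131700-85185064), which encodes the partner of the PER proteins, moved the other way. It measured 14.9, 17.5 and 16.2 CPM in the controls, 9.58, 8.49, 10.9, 11.1 and 8.20 CPM in the slow-growing PNs and 4.87 to 10.97 CPM in the fast-growing PNs (median 7.92). Every PN lay below every control, with a log2 fold change of -0.88 ± 0.20 (adjusted p = 0.0046). Its SD of log2 values lay at the 35.2nd percentile of genes of like level over the PNs, and PN 1198A did not stand apart.

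In the activating arm, *Clock* and its relative *Npas2* moved in opposite directions. *Clock* (chr5:76209868-76304792) measured 134, 120 and 131 CPM in the controls, 197, 168, 204, 193 and 194 CPM in the slow-growing PNs and 167 to 216 CPM in the fast-growing PNs (median 197). The groups did not overlap, the log2 fold change was 0.60 ± 0.11 (adjusted p = 0.0013), and the SD of *Clock* over the 11 PNs (0.12 in log2) lay at the 5th percentile of genes of like level. *Npas2* (chr1:39193731-39363236) measured 15.6, 10.4 and 14.1 CPM in the controls, 4.41, 1.73, 5.08, 6.21 and 4.05 CPM in the slow-growing PNs and 2.77 to 5.90 CPM in the fast-growing PNs (median 3.05). Its log2 fold change of -1.75 ± 0.29 (adjusted p = 6.0e-04) corresponded to a 3.37-fold lower level, and PN 1198A held the lowest value, from 23 counts.

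*Arntl* (chr7:113207465-113314126), the obligate partner of both, did not pass the test (-0.53 ± 0.38, adjusted p = 0.33). It measured 20.7, 24.0 and 26.3 CPM in the controls, 13.3, 6.39, 16.2, 5.20 and 16.9 CPM in the slow-growing PNs and 15.9 to 30.6 CPM in the fast-growing PNs (median 16.8). All 5 slow-growing PNs lay below the controls, whereas fast-growing PN 1179 lay above them, PN 1191 within their range and the other 4 fast-growing PNs below.

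*Dbp* (chr7:45705088-45710203), the clock's D-box-binding output factor, had the lowest CPM of the 10 in the controls. It measured 1.99, 1.29 and 0.95 CPM in the controls, from as few as 9 counts, 3.34, 14.1, 2.34, 1.83 and 5.30 CPM in the slow-growing PNs and 2.78 to 6.31 CPM in the fast-growing PNs (median 3.92). Slow-growing PN 1203 fell within the control range and the other 10 PNs lay above it. The log2 fold change was 1.73 ± 0.59 (adjusted p = 0.042), and the call held in 12 of 21 alternatives other than the covariate fit; adjusted p was 0.11 with limma-voom and reached 0.18 when control DRG5 was left out. *Dbp* shares 539 bases, 18.0% of its exon length, with *Sphk2* on the other strand; *Sphk2*, a sphingosine kinase gene, measured 24.1 ± 1.91 CPM in the controls and 29.0 ± 4.73 CPM in the PNs (SD, n = 3 and 11).

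Per kilobase of exon, the order of the members changed between tissues. In controls the mean levels ran from *Nr1d1* (12.4 CPM per kb), *Clock* (9.33), *Nr1d2* (5.71) and *Per1* (5.62) through *Cry1* (4.85), *Per3* (3.23), *Arntl* (3.15) and *Npas2* (2.79) to *Per2* (2.003) and *Dbp* (0.47). In PNs they ran from *Nr1d1* (53.3), *Nr1d2* (18.7), *Clock* (14.2), *Per3* (9.06) and *Per1* (8.35) through *Per2* (3.88), *Cry1* (2.63) and *Arntl* (2.18) to *Dbp* (1.57) and *Npas2* (0.83). By group mean, *Npas2* was thus above *Dbp* in the controls and below it in the PNs on this scale. Single PNs differed in this order. *Npas2* lay above *Dbp* in PNs 1202 (1.06 and 0.78 CPM per kb), 1203 (1.30 and 0.61), 1191 (1.23 and 0.94) and 1179 (0.932 and 0.929), and below it in the other PNs. Within single libraries, the CPM of *Nr1d1* exceeded that of *Npas2* by 1.32 to 1.68 on the log2 scale in the controls and by 3.54 to 7.45 in the PNs, so that these ranges did not overlap; for *Nr1d1* over *Arntl* they were 0.36 to 0.91 and 2.01 to 5.57.

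The muscle and fat marker sums were higher in every control than in every PN, so these tissues and the groups cannot be told apart by the controls alone. With the mean log2 levels of both lists as covariates in the fit, no clock gene was called in PNs against controls (adjusted p 0.073 to 0.41 for the 7 genes called without them), where 2.88% of all genes were, and each of the 7 kept its direction. Log2 fold changes in this fit were 1.73 for *Nr1d1*, 1.44 for *Nr1d2*, 1.03 for *Per3*, 0.99 for *Dbp*, 0.64 for *Clock*, -0.58 for *Cry1* and -1.49 for *Npas2*. Among slow-growing PNs, 1198A, 1202 and 1206 had fat marker sums of 2533, 2370 and 3573 CPM and *Npas2* at 1.73, 5.08 and 4.05 CPM, while 1079 and 1203 had fat sums of 387 and 58.1 CPM and *Npas2* at 4.41 and 6.21 CPM. *Nr1d1* in these libraries was 303, 106 and 207.5 against 153 and 72.1 CPM. Muscle marker sums in the same order were 33.4, 3857 and 61.0 against 3653 and 1156 CPM. PNs 1198A and 1206, the lowest in muscle markers of the slow-growing PNs, were the highest in *Nr1d1* and the lowest in *Npas2*. PN 1203, next lowest in muscle markers, had the lowest *Nr1d1* and the highest *Npas2*. The part of muscle and fat in these levels was not tested.

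Each growth group was also set against the same 3 controls, and the 2 comparisons share those libraries. In slow-growing PNs, 5 of the 10 clock genes were called, where 11.3% of all genes were: *Nr1d1* (2.10 ± 0.47), *Nr1d2* (1.72 ± 0.39) and *Clock* (0.54 ± 0.14) rose and *Npas2* (-1.68 ± 0.36) and *Cry1* (-0.79 ± 0.18) fell. The other 5 missed the threshold. They were *Per3* (1.51 ± 0.48, adjusted p = 0.079), *Arntl* (-1.07 ± 0.40, adjusted p = 0.12, with every slow-growing PN below every control), *Dbp* (1.89 ± 0.74, adjusted p = 0.13), *Per2* (1.23 ± 0.65, adjusted p = 0.23) and *Per1* (0.63 ± 0.52, adjusted p = 0.42). *Per3* and *Dbp* passed it with DESeq2 (adjusted p = 0.013 and 0.042) and in one fit over the 14 libraries (0.022 and 0.047), whereas *Clock* missed it with no filter on low counts (0.070). The number called fell to 0 without control DRG4 (where 4.27% of all genes were called), control DRG5 (3.74%) or PN 1079 (6.19%). It was 2 without control DRG3 (15.3%) or PN 1206 (7.87%), 3 without PN 1202 (6.73%), 4 without PN 1198A (9.57%) and 6 without PN 1203 (12.5%). Over the same 8 fits the log2 fold changes moved less, from 1.79 to 2.32 for *Nr1d1*, 1.397 to 1.902 for *Nr1d2*, 0.50 to 0.58 for *Clock*, -1.82 to -1.48 for *Npas2* and -0.85 to -0.72 for *Cry1*.

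In fast-growing PNs, 7 of the 10 were called, where 31.4% of all genes were. *Nr1d1* (2.02 ± 0.26), *Nr1d2* (1.62 ± 0.20), *Dbp* (1.501 ± 0.39), *Per3* (1.38 ± 0.28) and *Clock* (0.57 ± 0.12) rose, and *Npas2* (-1.90 ± 0.28) and *Cry1* (-1.06 ± 0.23) fell. The call for *Dbp* was lost without control DRG4 or DRG5 (adjusted p = 0.062 and 0.065) and in one fit over the 14 libraries (1.54, adjusted p = 0.075). *Per1* (0.44 ± 0.41), *Per2* (0.59 ± 0.44) and *Arntl* (-0.27 ± 0.26) did not pass the test. With the muscle and fat scores as covariates no gene at all was called in either growth group against the controls. The log2 fold changes in slow-growing PNs were then 2.05 for *Nr1d1*, 1.54 for *Nr1d2*, 0.68 for *Clock*, -1.59 for *Npas2* and -0.65 for *Cry1*, with adjusted p of 0.60 to 0.92. In fast-growing PNs they were 1.25 for *Nr1d1*, 1.17 for *Nr1d2*, 0.039 for *Dbp*, 0.70 for *Per3*, 0.79 for *Clock*, -1.49 for *Npas2* and -0.87 for *Cry1*, with adjusted p of 0.83 to 0.997.

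**Figure D2:**
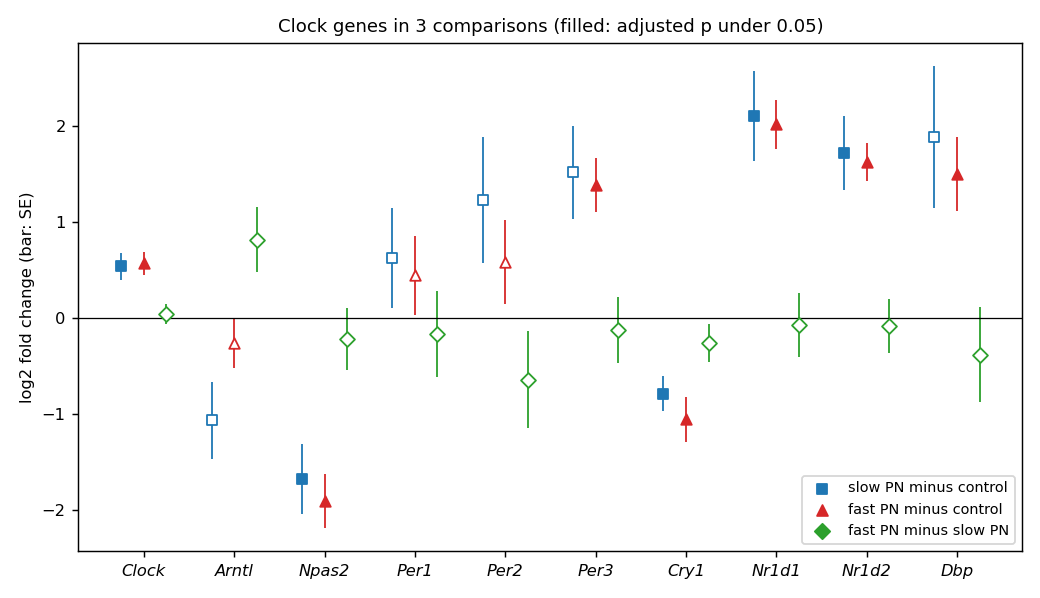
Log2 fold change (points) and its SE (bars) of the 10 clock genes for slow-growing PNs against controls, fast-growing PNs against controls and fast- against slow-growing PNs; filled points passed an adjusted p of 0.05 over all genes. The growth groups lie side by side for most genes, from 2.10 and 2.02 in *Nr1d1* to -1.68 and -1.90 in *Npas2*, and no clock gene was called between them.

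Fast- and slow-growing PNs were then compared with each other, to ask whether growth rate went with clock gene levels. None of the 10 was called by edgeR, where 1.27% of all genes were. None was called by DESeq2, where 10.2% of all genes were, or by limma-voom, where 0.22% were. By edgeR, 1 of the 10, *Arntl*, had an unadjusted p under 0.05, as had 3155 of all 15465 genes tested. *Arntl* averaged 20.4 ± 6.37 CPM in fast-growing and 11.6 ± 5.49 CPM in slow-growing PNs (SD, n = 6 and 5), a log2 difference of 0.82 ± 0.34 (unadjusted p = 0.033, adjusted p = 0.20), and the groups overlapped. The differences of *Clock* (0.04 ± 0.10), *Nr1d1* (-0.07 ± 0.33), *Nr1d2* (-0.09 ± 0.28), *Per3* (-0.13 ± 0.35), *Per1* (-0.17 ± 0.45), *Npas2* (-0.22 ± 0.32) and *Dbp* (-0.38 ± 0.49) were smaller than their SEs. Those of *Cry1* (-0.26 ± 0.20) and *Per2* (-0.64 ± 0.51) had adjusted p values of 0.49 and 0.50. Without PN 1198A, the differences of *Per1*, *Per2*, *Per3*, *Nr1d1*, *Nr1d2* and *Dbp* turned positive (0.14 to 0.37), with adjusted p values of 0.50 to 0.82.

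Within the groups, some members varied widely between animals and others less. Over the 11 PNs, the SD of log2(CPM + 1) was 0.83 for *Per2*, 0.75 for *Per1*, 0.69 for *Arntl*, 0.67 for *Dbp*, 0.59 for *Per3*, 0.57 for *Nr1d1*, 0.47 for *Nr1d2*, 0.42 for *Npas2*, 0.30 for *Cry1* and 0.12 for *Clock*. Against the 500 genes of nearest level, *Per2*, *Per1* and *Arntl* ranked at the 87.8th, 87.0th and 84.4th percentile of SD. The spread was wider among slow-growing than fast-growing PNs for *Nr1d1* (SD 0.80 and 0.37), *Nr1d2* (0.66 and 0.31), *Per3* (0.81 and 0.41) and *Dbp* (0.96 and 0.39), a difference that was not tested. Without PN 1198A the SD among the slow-growing PNs was 0.65 for *Nr1d1*, 0.43 for *Nr1d2*, 0.60 for *Per3* and 0.50 for *Dbp*. Other members went the other way. The SD fell from 0.90 to 0.55 for *Per1* (fast-growing PNs 0.69), from 1.02 to 0.38 for *Per2* (0.68) and from 0.53 to 0.22 for *Npas2* (0.35). With PN 1198A kept, *Clock* (0.11 and 0.13) and *Cry1* (0.18 and 0.35) varied less among slow- than fast-growing PNs. For *Arntl* the SD was 0.72 with or without PN 1198A (fast-growing PNs 0.40). PN 1198A was the highest and PN 1203 the lowest slow-growing PN in *Nr1d1*, *Nr1d2*, *Per1*, *Per2* and *Dbp*.

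Most members were related to others across the PNs. Of the 45 pairs of members, 21 were related over the 11 PNs (Pearson r of log2(CPM + 1), two-sided permutation test with 100000 resamples, adjusted p under 0.05 over the 45 pairs), and 16 passed by Spearman's rho as well. The 15 positive pairs were all those among *Per1*, *Per2*, *Per3*, *Nr1d1*, *Nr1d2* and *Dbp*, and the 6 negative pairs joined *Npas2* to each of these 6 genes. *Per3* and *Nr1d2* had r = 0.98 (rho = 0.96) and *Nr1d1* and *Dbp* r = 0.94 (rho = 0.96), and in both pairs the adjusted permutation p was 0.000225 for r, from the smallest p these permutations can give, and 0.00045 for rho. *Npas2* opposed *Dbp* most closely (r = -0.89, rho = -0.88) and *Nr1d1* next (r = -0.85, rho = -0.95). PN 1198A anchored both ends of these relations, with the highest of the 6 genes and the lowest *Npas2*.

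**Figure D3:**
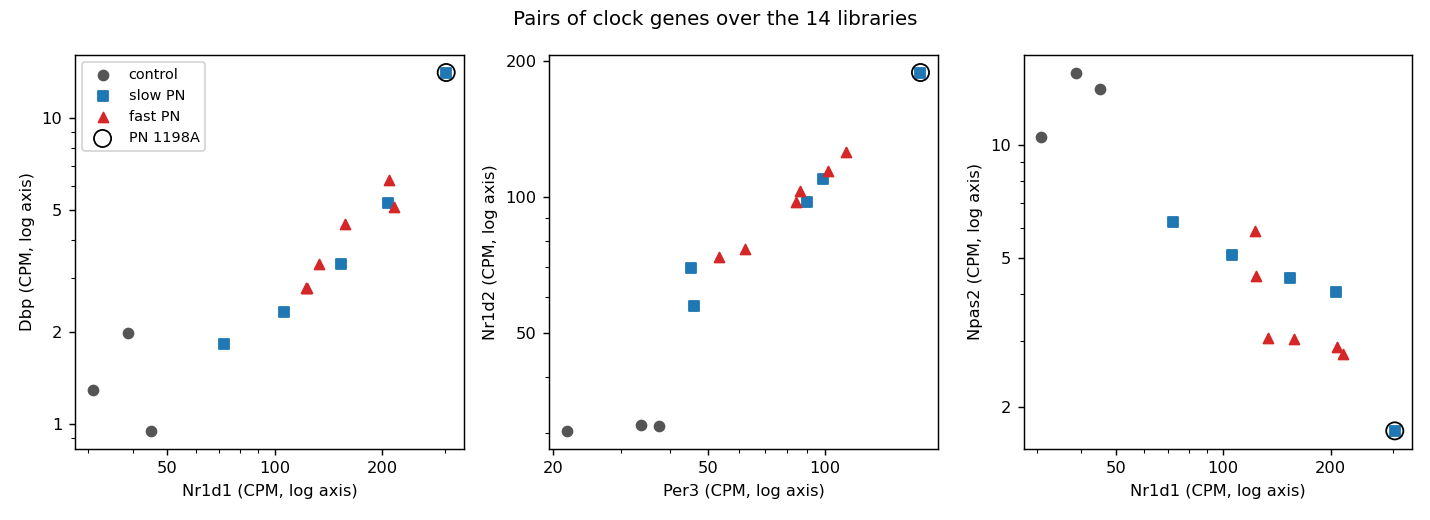
CPM of *Dbp* against *Nr1d1*, *Nr1d2* against *Per3* and *Npas2* against *Nr1d1*, 1 point per library on log axes; the ring marks PN 1198A. PNs line up along a rising band in the first and middle panels and a falling band in the last, and the controls lie at the low end of *Nr1d1* (30.9 to 45.04 CPM).

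Leaving out the 2 PNs farthest from the median of the first gene kept r at 0.99 for *Per3* with *Nr1d2*, 0.96 for *Nr1d1* with *Dbp* and 0.82 for *Per3* with *Dbp*. For *Per2*, r was then 0.45 with *Nr1d2*, 0.44 with *Per3*, 0.52 with *Nr1d1* and 0.54 with *Dbp*. For *Npas2* it was -0.36 with *Nr1d2*, -0.41 with *Per3* and -0.46 with *Per1*. Leaving out the ends of a range can itself bring r nearer to none, so these lower values do not show that the relations rest on those libraries. Without PN 1198A alone, a choice made after seeing the data, 13 of the 21 pairs still passed and all 21 kept their sign. The pairs lost were *Per2* with *Per3*, *Nr1d1*, *Nr1d2* and *Dbp*, and *Npas2* with *Per1*, *Per2*, *Per3* and *Nr1d2*. *Npas2* still opposed *Nr1d1* (r = -0.78, adjusted permutation p = 0.030) and *Dbp* (r = -0.82, adjusted permutation p = 0.026) over the 10 remaining PNs. After the mean of each growth group was subtracted, all 21 pairs still passed, with *Clock* and *Cry1* as a further pair (r = 0.80, adjusted permutation p = 0.0063). Without PN 1198A, *Npas2* and *Cry1* were a further pair (r = 0.73, adjusted permutation p = 0.036).

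*Arntl*, *Cry1* and *Clock* were in none of the 21 pairs. *Arntl* had r = -0.03 with *Nr1d1*, -0.28 with *Dbp* and 0.20 with *Npas2*, its strongest relation being with *Per2* (r = -0.48, rho = -0.59, adjusted permutation p = 0.22 and 0.12). These values turned on 1 or 2 libraries. Without PN 1198A, r was 0.39 with *Nr1d1*, 0.25 with *Dbp*, -0.21 with *Npas2* and -0.13 with *Per2*. Without PNs 1203 and 1198A, the 2 farthest from the median of *Arntl*, r was -0.45, -0.44, 0.47 and -0.82 in the same order. *Cry1* had r = 0.58 with *Npas2* (adjusted permutation p = 0.11) and -0.52 with *Nr1d1* (adjusted permutation p = 0.17). *Clock* and *Cry1* reached r = 0.62 (adjusted permutation p = 0.099).

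**Figure D4:**
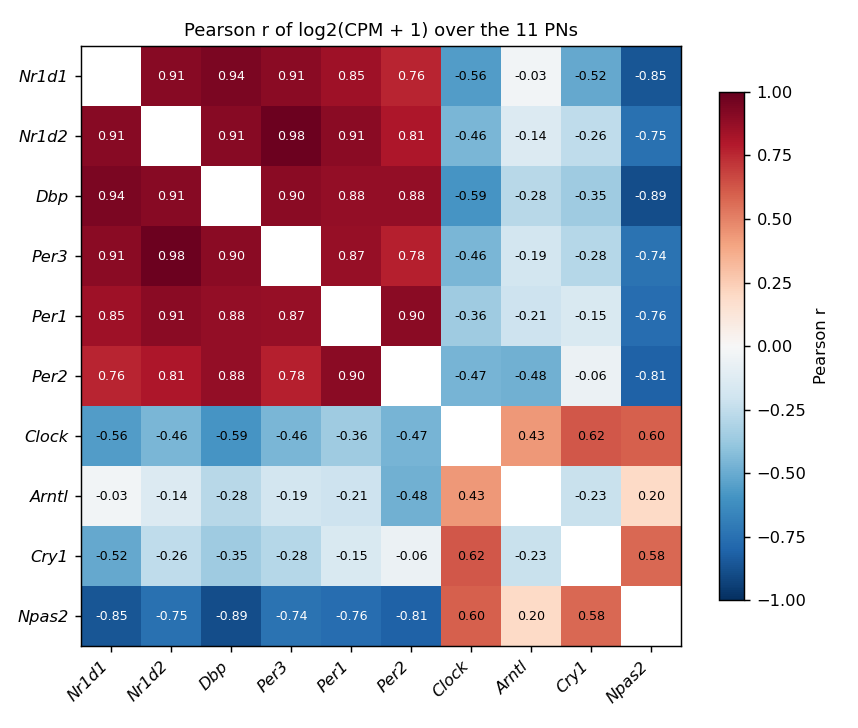
Pearson r of log2(CPM + 1) for each pair of the 10 clock genes over the 11 PNs, from -1 (blue) to 1 (red). *Nr1d1*, *Nr1d2*, *Dbp*, *Per3*, *Per1* and *Per2* form a block with r of 0.76 to 0.98, *Npas2* is negative to all of them (-0.74 to -0.89), and *Arntl* is near 0 with *Nr1d1* (-0.03). The last value was 0.39 without PN 1198A and -0.45 without PNs 1203 and 1198A.

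Genes of like pattern were then sought among 11046 genes, as a description in which all genes share the libraries and their scaling. The log2 of their mean CPM over the 14 libraries was 3 or more. Over the 11 PNs, the 5 genes closest to *Dbp* were *Nr1d1* (r = 0.94), *Klf15*, a glucocorticoid-responsive transcription factor gene (0.92), *Nr1d2* (0.91), *Atf7*, a CRE-binding factor gene (0.91), and *Per3* (0.90), followed by *Tef* in place 6 (0.90), *Per1* in place 9 (0.88) and *Per2* in place 10 (0.88). Over all 14 libraries they were *Tef* (0.94), *Per3* (0.92), *Atf7* (0.92), the retinoic acid receptor gene *Rarg* (0.89) and *Nr1d2* (0.89). At the other end over the PNs were *Exoc6* (-0.92), *Rbmx2* (-0.91), *Bid* (-0.86), *Hdac6* (-0.85) and *Dph6* (-0.85), and *Npas2*, itself below the level limit, would have taken place 3 from the bottom. Over the 14 libraries the lowest were *Exoc6* (-0.90), *Tmem5* (-0.86), *Bcap29* (-0.86), the muscle gene *Tnnt3* (-0.85) and *Arhgap27* (-0.85).

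No clock gene was among the closest to *Arntl*. Over the 14 libraries these were *Ino80c* (0.85), *Wbp1l* (0.82), *Crem* (0.82), *Dhx34* (0.82) and *Ly6a* (0.81), and over the PNs *Bcl2* (0.90), *Ehbp1l1* (0.88), *Pde7b* (0.86), *Pced1a* (0.86) and *Ino80c* (0.86). *Cry2* and *Bhlhe41*, which encode repressors of the loop, lay at the far end, in places 6 and 9 from the bottom over the 14 libraries (r = -0.80 for both).

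Of 24 other genes of the clock and its outputs, 2 rose and 3 fell in PNs against controls, and 19 did not pass the test, against the 26.3% of all genes called. The median log2 fold change of the 24 was 0.42. *Nfil3*, the repressor that competes with DBP and its relatives for D-boxes, differed most of the 24. It measured 23.0, 14.6 and 26.2 CPM in the controls and 2.92 to 8.63 CPM in the PNs (median 4.61), with no overlap and a log2 fold change of -2.15 ± 0.24 (adjusted p = 3.1e-05). *Tef*, a relative of *Dbp* that activates D-boxes, rose from 31.2, 27.3 and 24.6 CPM to 29.9 to 85.7 CPM (0.85 ± 0.25, adjusted p = 0.024), with the groups overlapping in PN 1179 only. The third member of this family, *Hlf*, did not pass the test (0.34 ± 0.42, adjusted p = 0.57).

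*Csnk1e*, which encodes a kinase that phosphorylates PER proteins, rose by 0.65 ± 0.14 (adjusted p = 0.0038) without overlap. *Nampt*, an enzyme gene of NAD synthesis under clock control, fell by 0.66 ± 0.16 (adjusted p = 0.0086), and the coactivator gene *Ppargc1a*, abundant in muscle and brown fat, fell by 0.78 ± 0.24 (adjusted p = 0.025). The call of *Tef* was lost without control DRG4 (adjusted p = 0.091) or DRG5 (0.12), that of *Nampt* without DRG4 (0.057) or DRG5 (0.059) and that of *Ppargc1a* without DRG3 (0.15) or DRG5 (0.12). With the muscle and fat scores as covariates, where 2.88% of all genes were called, none of the 5 passed the test. The log2 fold changes were then -1.50 for *Nfil3* (adjusted p = 0.096), 0.69 for *Tef* (0.32), 0.33 for *Csnk1e* (0.43), -0.15 for *Nampt* (0.70) and -0.15 for *Ppargc1a* (0.85). Neither the second cryptochrome gene *Cry2* (0.51 ± 0.29, adjusted p = 0.20), nor *Rora*, an activator of *Arntl* (-0.23 ± 0.13, adjusted p = 0.21), nor the E-box repressor genes *Bhlhe40* (0.84 ± 0.40, adjusted p = 0.13) and *Bhlhe41* (0.47 ± 0.22, adjusted p = 0.14) passed the test.

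**Figure D5:**
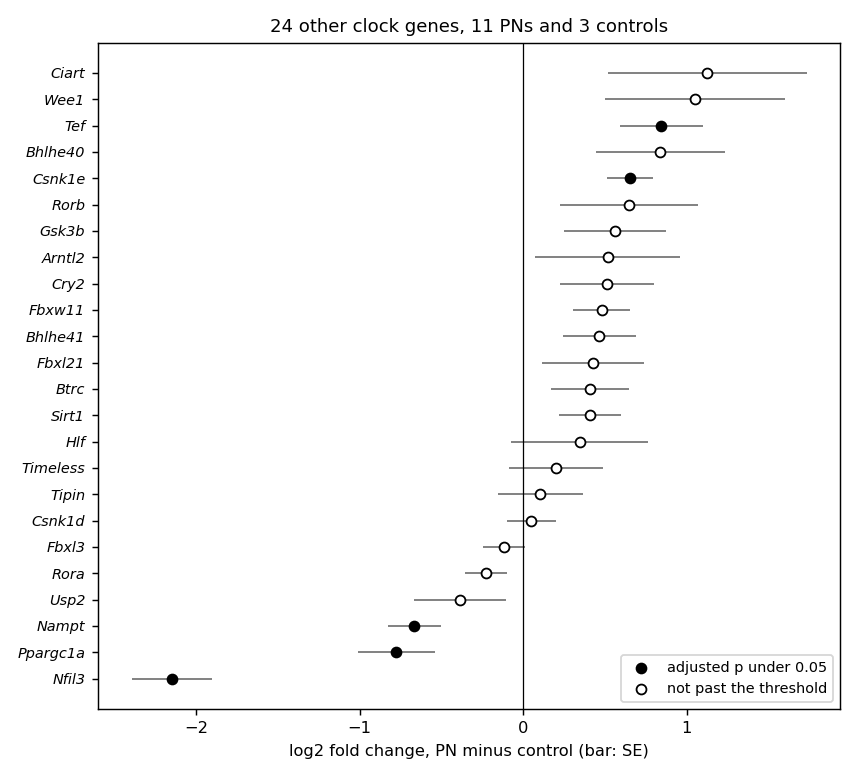
Log2 fold change (points) and SE (bars) of 24 other clock genes in 11 PNs against 3 controls; filled points passed an adjusted p of 0.05 over all genes. *Nfil3* stands lowest at -2.15, and *Tef* (0.85) and *Csnk1e* (0.65) are the 2 that rose.

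In slow-growing PNs against controls only *Nfil3* was called among the 24 by edgeR (-2.17 ± 0.36, adjusted p = 0.0080), where 11.3% of all genes were. This count depended on the method. It was 5 with DESeq2 (22.5% of all genes) and 4 in one fit over the 14 libraries (20.1%). It was 2 with scaling by library size only (10.9%), without DRG3 (15.3%) or without PN 1203 (12.5%). With the muscle and fat scores as covariates none of the 24 was called, and *Nfil3* stood at -0.91 (adjusted p = 0.92). In fast-growing PNs, 5 rose and 4 fell, where 31.4% of all genes were called. *Bhlhe40* (1.02 ± 0.22), *Arntl2* (0.92 ± 0.26), *Tef* (0.71 ± 0.23), *Csnk1e* (0.69 ± 0.12) and *Fbxw11*, a ubiquitin ligase subunit gene (0.43 ± 0.14), rose. *Nfil3* (-2.21 ± 0.22), *Ppargc1a* (-1.07 ± 0.21), *Nampt* (-0.91 ± 0.14) and *Usp2*, a deubiquitinase gene (-0.57 ± 0.17), fell. Several of these calls depended on single libraries. That of *Tef* was lost without any 1 of DRG3, DRG4, DRG5, 1053, 1071, 1214 and 1216 (adjusted p up to 0.12), that of *Fbxw11* without any 1 of DRG4, DRG5, 1053, 1071, 1179, 1214 and 1216 (up to 0.18), that of *Usp2* without any 1 of DRG3, DRG5, 1053, 1179, 1214 and 1216 (up to 0.20) and that of *Arntl2* without DRG3 or DRG5 (up to 0.074). In limma-voom *Arntl2* (adjusted p = 0.054) and *Tef* (0.058) missed the threshold, in one fit over the 14 libraries *Bhlhe40* (0.054), *Fbxw11* (0.072) and *Usp2* (0.23) did, and with scaling by library size only *Usp2* (0.068) did. None of the 9 passed with the muscle and fat scores as covariates (lowest adjusted p = 0.80), where no gene of all those tested was called. Log2 fold changes in that fit were 0.12 for *Bhlhe40*, -0.25 for *Arntl2*, 0.25 for *Tef*, 0.36 for *Csnk1e* and 0.43 for *Fbxw11*. They were -1.79 for *Nfil3*, -0.33 for *Ppargc1a*, -0.46 for *Nampt* and 0.11 for *Usp2*. Between the growth groups, 1 of the 24 was called, where 1.27% of all genes were. This was *Arntl2*, the paralog of *Arntl*, which measured 14.7, 7.35, 13.6, 10.9, 9.77 and 10.8 CPM in fast-growing PNs 1053, 1071, 1179, 1191, 1214 and 1216 and 3.19 to 5.57 CPM in the slow-growing PNs (median 4.67), with no overlap. The log2 difference was 1.32 ± 0.22 (adjusted p = 0.037), and the call did not survive the removal of PN 1079, 1202, 1206, 1053, 1179, 1191 or 1216 (log2 differences of 1.22 to 1.33, adjusted p up to 0.12). It was also lost with limma-voom (1.31, adjusted p = 0.051) and with the muscle and fat scores as covariates (1.07, adjusted p = 0.32). In the fits without 1 of the PNs just named, 0.013 to 0.052% of all genes were called, and with limma-voom 0.22%. Other settings raised the count between the growth groups. Of the 24, 2 were called with DESeq2 (10.2% of all genes) and 2 without PN 1198A (7.65%).

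PN 1198A stood apart in several clock genes and in other lists. It held the highest level of all 14 libraries in *Per1*, *Per2*, *Per3*, *Nr1d1*, *Nr1d2*, *Dbp*, *Tef*, *Hlf*, *Ciart*, *Wee1*, *Bhlhe40*, *Usp2* and *Sirt1*. Its summed level of 12 glucocorticoid response genes was 1247 CPM, against 400 to 999.9 CPM in the other PNs and 809 to 1347 CPM in the controls, whereas that of 14 immediate early genes was 562 CPM, within the 208 to 712 CPM of the PNs and below the 772 to 1170 CPM of the controls. Of the immediate early genes, 8 of 14 fell in PNs against controls and none rose, and of the glucocorticoid response genes 3 of 12 fell and none rose, where 13.4% of all genes fell. The part of these lists in the clock gene results was not tested. Without PN 1198A, the log2 fold changes against controls were 1.97 for *Nr1d1*, 1.58 for *Nr1d2*, 1.33 for *Per3*, 1.41 for *Dbp* and -1.67 for *Npas2*, and the same 7 clock genes were called.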

How the data were processed

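Bulk RNA was sequenced from frozen PNs and control DRGs with the Ovation RNA-Seq System v2, a kit for small amounts of RNA. Per the submitters' processing notes, the authors aligned reads to mm10 (TopHat2 2.0.9 is named), and the deposited counts per gene are whole numbers (featureCounts 1.5.2 is named, and the strand setting is not given in the sources used here). The authors also deposited log2 values of TMM-scaled CPM (edgeR 3.16.5 is named), which served only as an alternative. CPM here were computed from the counts with TMM factors over the 14 libraries. Differences were tested with edgeR 4.0.16 (quasi-likelihood test, filterByExpr, TMM, Benjamini-Hochberg adjustment over all genes tested, R 4.3.3), with only the libraries of each comparison in its fit, and SE is the log2 fold change over the root of F. Alternatives used DESeq2 1.42.0 and limma 3.58.1. Relations between members used scipy 1.17.1 and a pseudocount of 1 CPM. The scripts were tested on simulated data.

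Libraries held 9596773 to 17594164 counts. The lowest library held 9 counts of *Dbp* and 23 of *Npas2*. The libraries are separate tissue samples, and p-values measure the spread between them. Groups came from the labels. The 10 clock genes, the 24 other clock genes and the marker lists were chosen with earlier results of these data known. The text names all 10 clock genes, those of the 24 that were called in any comparison, *Cry2*, *Rora*, *Tef*, *Hlf*, *Nfil3*, *Bhlhe40* and *Bhlhe41* whatever their result, and the 5 genes at each end of likeness to *Dbp* and the 5 most like *Arntl*. A gene of the initial list is not reported here. *Ciart*, *Wee1*, *Csnk1d* and *Sirt1* were named after their values were seen. RefSeq promoter windows matched 9 of the 10 members by symbol, and *Per2* had no entry.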

Additional observations from a re-analysis of the deposited data

Results flagged for a closer look

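Single libraries stood far from the rest of their group in several clock genes, by Dixon's test at 95% on CPM values. The test was not run on the log2 scale used for the SDs and relations, where high values stand out less. Slow-growing PN 1198A was the high value for *Per2* (75.3 CPM), *Dbp* (14.1 CPM), *Tef* (85.7 CPM), *Ciart* (10.8 CPM) and *Wee1* (52.5 CPM). Slow-growing PN 1203 was high for the kinase gene *Csnk1d* (179 CPM) and fast-growing PN 1214 for *Nampt* (105.6 CPM). Chance alone passes this test in about 1 of 20 groups of normally distributed values, and whether the CPM values are so distributed was not tested. It was passed in 2 of 20 for the 10 clock genes and in 5 of 48 for the 24 others. The growth groups differed in *Arntl2*, with a log2 difference of 1.32 between fast- and slow-growing PNs by edgeR (adjusted p = 0.037, all 6 fast-growing above all 5 slow-growing PNs). This call was lost with limma-voom (adjusted p = 0.051), with muscle and fat scores as covariates (0.32) and in 7 of the 11 fits that left out a single PN (up to 0.12).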

How the results depend on the processing

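The 7 calls of PNs against controls gave way to 5 to 7 when single libraries were left out (6 without control DRG4 and 5 without DRG5, where 14.9% and 12.5% of all genes were called against 26.3%), and *Clock*, *Npas2*, *Cry1*, *Nr1d1* and *Nr1d2* were called in all 21 alternatives other than the covariate fit. With muscle and fat scores as covariates, 0 members were called in each of the 3 comparisons with controls, and log2 fold changes reversed for *Arntl* in slow-growing PNs against controls (0.30), for *Per1* (-1.24), *Per2* (-1.25), *Arntl2* (-0.25) and *Usp2* (0.11) in fast-growing PNs against controls, and for *Nr1d1* (0.20), *Nr1d2* (0.035) and *Dbp* (0.033) between growth groups. The cause was not tested. Without single libraries, members called in slow-growing PNs against controls ranged from 0 to 6. Between growth groups no member was called under any alternative, where DESeq2 called 10.2% of all genes and limma-voom 0.22%. The sign between growth groups also turned with limma-voom for *Per3* (0.014), *Nr1d1* (0.065) and *Nr1d2* (0.014) and with the deposited log2 values (0.010, 0.058 and 0.0085). Without single libraries these differences ranged from -0.44 to 0.35 for *Per1*, -0.94 to 0.14 for *Per2*, -0.30 to 0.25 for *Per3*, -0.27 to 0.25 for *Nr1d1*, -0.24 to 0.24 for *Nr1d2* and -0.60 to 0.37 for *Dbp*. Related pairs numbered 14 of 45 without PN 1198A, against 21 with it. No paired analysis was possible because the labels give the libraries no shared replicate numbers.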
